A study of Mus musculus with 2 samples.

Results

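The 10 genes described here encode the bone morphogenetic protein (BMP) ligands Bmp2, Bmp4, Bmp5, Bmp6, Bmp7, Bmp8a and Bmp8b, the related ligands myostatin (Mstn) and Gdf11, and follistatin (Fst). They were chosen by name, and their CpG cytosines were those with at least 5 reads in each library and outside the sites of the restriction enzymes MspI (CCGG) and TaqαI (TCGA), within the gene body, a CpG island of the gene or 1 kb on either side of the gene start. This gave 1330 cytosines at 749 CpGs in 9 of the 10 genes, of 1850635 such cytosines genome-wide. The libraries were made by reduced representation bisulfite sequencing from mouse C3H myoblasts differentiated into myotubes and collected 48 h after transfection with a control siRNA (siCon) or an siRNA directed at H19, a long non-coding RNA (siH19). There was 1 library per group, so a difference between the siRNAs and a difference between the 2 cultures cannot be told apart. The p-values below compare 2 libraries, and the intervals take only the counting of reads into account. Reads that carry no molecular identifier may be copies of the same molecule, so that the intervals may be too narrow even for that. DNA methylation shows neither the level of H19 RNA nor the marker transcripts of myotubes, and neither was checked here.

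BMPs are secreted dimers that bind type I and type II serine/threonine kinase receptors and act through Smad1, Smad5 and Smad9, with the Id genes among their best known targets. Myostatin, which restrains muscle growth, and its close relative Gdf11 act mainly through the activin receptors and Smad2 and Smad3. Follistatin binds myostatin, activins and, more weakly, several BMPs outside the cell and keeps them from their receptors. In muscle, BMP signalling and myostatin signalling have opposing effects on mass, and BMP2 can turn myoblasts from the muscle to the bone lineage in culture. Methylation of the CpG island at a gene start generally goes with a silent gene, while gene bodies and regions outside islands are usually methylated in active and silent genes alike.

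Over the whole genome the siCon library covered 5453019 cytosines with a median depth of 12 reads and the siH19 library 5266846 with a median of 13. At the cytosines of the 10 genes the reads summed to 38319 in siCon and 44114 in siH19, and the median depth was 25 and 27 reads. Bmp7 had the most cytosines, 265, followed by Bmp2 with 244, Bmp6 with 185, Bmp8b with 135, Bmp8a with 128, Fst with 125, Bmp4 with 114, Gdf11 with 111 and Bmp5 with 23. Mstn had none: 6 of its cytosines carried any read, and none had more than 1 read in a library. Its methylation could not be measured in these libraries. Bmp5 was covered in its introns alone, so that its start could not be described either.

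The methylation around the gene start differed greatly between the genes and hardly at all between the libraries. Levels here are means over cytosines in which each cytosine has the same weight in both libraries. Bmp8b, a ligand known from brown fat and germ cells, was the most methylated, with 76.4% in siCon and 76.7% in siH19 over 102 cytosines. Bmp2, a strong inducer of bone and cartilage, followed with 59.0% and 58.1% over 160 cytosines. Bmp4, a ligand of early mesoderm and many organs, had 40.1% and 35.6%, but over 16 cytosines only. Below these came Bmp8a, the neighbouring copy of Bmp8b, with 18.1% and 17.4% over 44 cytosines. Bmp6, a ligand of bone and of iron balance, had 14.2% and 14.5% over 93 cytosines. Bmp7, which is needed for kidney and eye development, had 9.37% and 8.58% over 114 cytosines. The starts of Fst (1.70% and 1.43% over 100 cytosines) and Gdf11 (0.909% and 0.976% over 89 cytosines) carried almost no methylation. The step between neighbours in this order was larger than the SD over the cytosines of both windows only between Bmp4 and Bmp8a in siCon (22.1 points, against SDs of 20.7 and 14.4), and not in siH19 (18.2 points, against 25.04 and 14.3). No other neighbours were set apart by that measure. The spread within a window was wide where the level was high: single cytosines of the Bmp8b window ran from 0% to 100% in both libraries with medians of 79.2% and 83.8%, and those of Bmp2 from 7.50% to 100% in siCon with a median of 59.5%. In Gdf11 no cytosine of the window exceeded 5.56% in siCon or 9.09% in siH19.

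**Figure D1:**
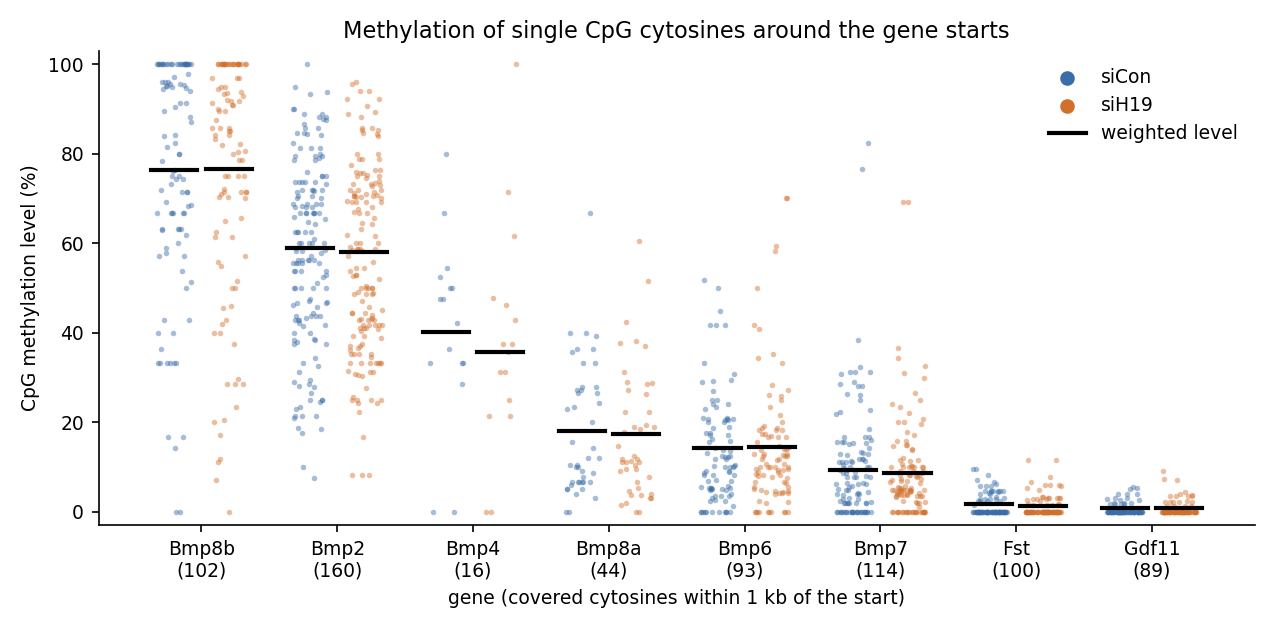
Methylation level in percent of each CpG cytosine (points) within 1 kb of the start of 8 genes in siCon (blue) and siH19 (orange), with the weighted level as a black line and the number of cytosines under the gene name. Bmp8b (76.4% and 76.7%) and Bmp2 (59.0% and 58.1%) lie above the other genes, Fst and Gdf11 near 0%, and the black lines of the 2 libraries almost coincide in each gene except Bmp4, which has 16 cytosines.

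For comparison, 11005 protein-coding genes had a start inside a computed CpG island and a measured window. The median unweighted mean of their cytosines was 1.45% in siCon, and 3.83% of the windows exceeded 50%. On that scale the Bmp8b window was higher than 98.9% of the 11005 and the Bmp2 window higher than 97.3%. Bmp8a stood above 84.9%, Bmp6 above 82.2%, Bmp7 above 77.5%, Fst above 53.8% and Gdf11 above 36.3% of them. In siH19 the positions were 98.8% for Bmp8b and 97.2% for Bmp2. The start of Bmp4 lay outside any computed island and was not ranked with them. Bmp8b and Bmp2 were therefore island starts with a methylation level that few other island starts reached, in both libraries.

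The sequences of the starts of Bmp8b, Bmp8a and Gdf11 are shown because they include the paralogue pair and, in Bmp8b and Gdf11, the most and the least methylated windows. They are RefSeq promoters on GRCm38.p6, written along the gene with CpGs in capitals, and 7 of the 10 genes had an entry. Bmp2, Bmp7 and Fst had none.
Bmp8b, chr4:123104911-123105210, plus strand: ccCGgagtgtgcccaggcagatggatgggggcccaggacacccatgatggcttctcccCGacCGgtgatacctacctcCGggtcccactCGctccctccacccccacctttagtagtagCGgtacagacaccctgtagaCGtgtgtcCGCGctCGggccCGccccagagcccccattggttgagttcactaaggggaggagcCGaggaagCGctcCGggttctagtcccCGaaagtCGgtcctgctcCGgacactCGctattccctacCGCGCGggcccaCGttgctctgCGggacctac
Bmp8a, chr4:123343203-123343502, minus strand: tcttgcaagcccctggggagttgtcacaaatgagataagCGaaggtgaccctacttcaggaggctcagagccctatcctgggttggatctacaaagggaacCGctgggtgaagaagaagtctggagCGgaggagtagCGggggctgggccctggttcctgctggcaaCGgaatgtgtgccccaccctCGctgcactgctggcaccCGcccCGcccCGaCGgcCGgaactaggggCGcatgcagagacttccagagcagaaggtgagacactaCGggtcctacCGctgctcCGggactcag
Gdf11, chr10:128891669-128891968, minus strand: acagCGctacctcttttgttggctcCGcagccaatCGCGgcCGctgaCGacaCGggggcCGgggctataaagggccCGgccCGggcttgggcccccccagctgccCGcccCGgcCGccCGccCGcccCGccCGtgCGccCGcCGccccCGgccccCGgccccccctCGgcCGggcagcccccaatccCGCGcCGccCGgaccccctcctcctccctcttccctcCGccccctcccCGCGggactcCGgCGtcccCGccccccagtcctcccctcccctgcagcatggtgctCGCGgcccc
The Bmp8b stretch held 23 CpGs, and its 21 covered cytosines averaged 67.6% in siCon and 66.0% in siH19. The Bmp8a stretch held 15 CpGs, and its 6 covered cytosines averaged 4.95% and 6.72%. The Gdf11 stretch held 36 CpGs, and its 20 covered cytosines averaged 0.551% and 0.527%. The median over 32851 RefSeq promoters was 7 CpGs. The letters GGGCGG, the core of the GC box, were found on either strand 9 times in Gdf11, 2 times in Bmp8a and 1 time in Bmp8b, and 35.7% of all promoters of this length held them. A match describes the sequence and is not a binding site.

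No start-site window, gene body or CpG island of these genes passed the test for a difference between the libraries. The test was a two-sided Mantel-Haenszel chi-square test that compares siH19 with siCon within each cytosine and sums over the region, with Benjamini-Hochberg adjustment over all regions of the kind. A region counted as different at an adjusted p-value under 0.05 and at least 10 percentage points. Of the 8 windows tested, 0 passed, against 0.626% of all windows. Of the 9 gene bodies 0 passed, against 0.365%, and of the 17 islands tested 0 passed, against 1.1%. At an unadjusted p-value under 0.05 there were 0 windows, 1 body and 1 island, against 21.3%, 17% and 19.4% of all regions. With the statistic scaled by the spread over cytosines 0 windows, 0 bodies and 0 islands had an adjusted p-value under 0.05, against 1.96%, 0.868% and 1.15% of all.

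Among the windows the difference, siH19 minus siCon, ran from -4.54 points in Bmp4 to 0.29 points in Bmp6. The interval of the difference takes only the counting of reads in these 2 libraries into account, so it does not bound an effect of the siRNA. It was -1.94 to 2.51 points for Bmp8b, -2.85 to 0.875 for Bmp2, -3.54 to 2.13 for Bmp8a, -1.23 to 1.82 for Bmp6 and -1.90 to 0.329 for Bmp7. For Fst it was -0.849 to 0.314 points and for Gdf11 -0.423 to 0.557. In these 7 windows a difference of 10 points between the 2 libraries lay outside the interval. For Bmp4 the interval was -12.4 to 3.28 points, and its 492 reads could not resolve a difference of 10 points. Cytosines of a fragment are read by the same reads, so that these intervals are too narrow to an extent that was not tested.

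The body with an unadjusted p-value under 0.05 was that of Bmp8b. Its level was 73.3% in siCon and 76.0% in siH19 over 94 cytosines, which gives 2.70 ± 1.14 points (SE), with a Mantel-Haenszel p-value of 0.0221 and an adjusted p-value of 0.195. Scaled by the spread over cytosines the p-value was 0.0658. The island was the one from 1402 to 3474 bp after the Bmp4 start, at chr14:46387195-46389267, with 3.91% in siCon, 5.63% in siH19 and a difference of 1.72 ± 0.799 points with an adjusted p-value of 0.222. The other bodies differed by -1.49 points (Bmp5) to 0.87 points (Bmp6). Neither difference was distinguishable from 0 after adjustment.

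**Figure D2:**
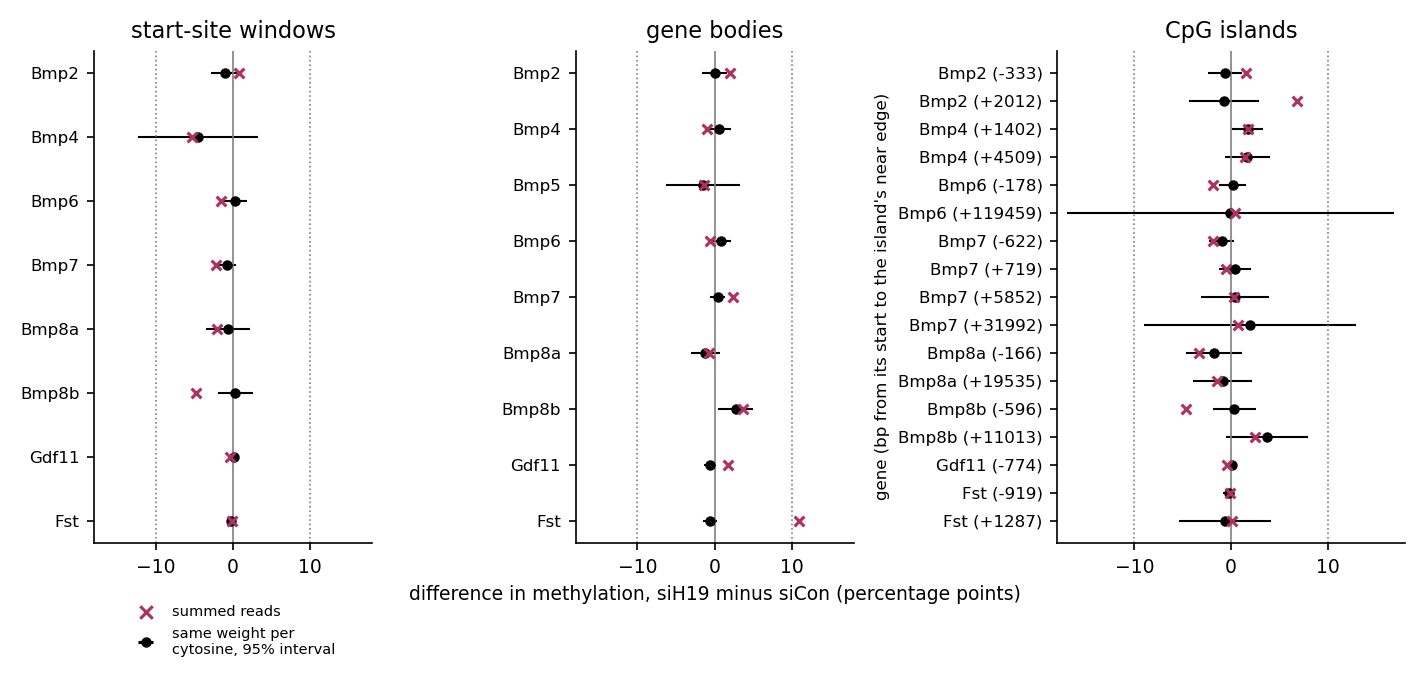
Difference in methylation, siH19 minus siCon, in percentage points for 8 start-site windows, 9 gene bodies and 17 CpG islands, with islands named by the distance in bp from the gene start to their near edge. Black points with bars are Mantel-Haenszel differences with 95% intervals, crosses are differences of summed reads, and dotted lines mark 10 points. The black points stay between -4.54 and 3.75 points, while the cross of the Fst body stands at 10.9.

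The sign of several differences depended on how the reads were combined. When reads were summed over a region, the Fst body went from 8.43% in siCon to 19.4% in siH19. Within the same cytosines it went from 11.9% to 11.3%, a difference of -0.59 ± 0.470 points. Its 3′ part, from 2763 to 3325 bp after the start, was methylated at 85.8% to 100% per fragment in both libraries. On the minus strand of 1 fragment there, the median depth was 37 reads in siCon and 117 in siH19. The Bmp8b window was the reverse case. Summed reads gave 78.6% in siCon and 73.8% in siH19, whereas the same cytosines differed by 0.28 ± 1.14 points. Across the restriction fragments of Bmp8b, taken strand by strand, the depth in siH19 was 0.286 to 4.67 times that in siCon. The sign of the summed difference was opposite to that within cytosines in 4 of 8 windows, 5 of 9 bodies and 8 of 17 islands.

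Along most of the genes, methylation was lower inside CpG islands than outside, most steeply in Gdf11 and Fst. Cytosines of Gdf11 had 0.913% in siCon inside islands (88 cytosines) and 84.8% outside (23 cytosines). Those of Fst had 3.601% inside and 70.4% outside. The step was smaller in Bmp7, with 11.6% inside and 37.4% outside, in Bmp6 with 16.7% and 48.0%, and in Bmp4 with 13.3% and 58.1%. Bmp8a was at 38.96% inside and 42.2% outside, and Bmp8b, methylated in its islands too, at 69.6% inside and 94.0% over 5 cytosines outside. In Bmp2 the order was reversed, with 58.1% inside islands and 13.7% over 8 cytosines outside. In siH19 the levels inside islands were 0.980% for Gdf11, 3.37% for Fst, 11.2% for Bmp7, 16.9% for Bmp6, 15.1% for Bmp4, 37.7% for Bmp8a, 57.5% for Bmp2 and 70.97% for Bmp8b, so that the order of the genes was the one seen in siCon. Bmp5, with no covered cytosine in an island, had 80.7% in siCon and 79.2% in siH19 over its 23 intronic cytosines. Across cytosines, which share libraries and fragments, levels correlated between siCon and siH19 with Pearson's r from 0.732 in Bmp8b to 0.987 in Gdf11.

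Bmp8b and Bmp8a are neighbouring copies on chromosome 4 that point in opposite directions, Bmp8b at chr4:123105165-123132099 on the plus strand and Bmp8a at chr4:123312645-123343252 on the minus strand. Their levels at the start differed by 58.3 points in siCon and 59.3 points in siH19. The copies could be aligned over 9 segments. The segment at the start, 1695 columns long, had 74.6% identity, and the longest, 6272 columns over the internal exons and islands, had 93.6% with an identical run of 404 bp. Where both copies had a covered cytosine on the same strand at an aligned CpG, 18 pairs near the start averaged 78.5% in Bmp8b and 15.8% in Bmp8a in siCon, and Bmp8b was higher in 17 of 18. In siH19 they averaged 78.8% and 12.4%, and Bmp8b was higher in 18 of 18. Away from the start there were 26 such pairs, all in the longest segment. They lay 9536 to 11927 bp after the Bmp8b start, mostly in an internal island. In siCon they averaged 69.4% in Bmp8b and 65.2% in Bmp8a, and Bmp8b was higher in 14 of 26. In siH19 the means were 72.4% and 61.8%, and Bmp8b was higher in 15 of 26. The pairs include both strands of the same CpG, and neighbouring pairs share reads, so that they are not separate observations. In both libraries the means thus lay farther apart at the aligned CpGs of the start than at those of this internal stretch. The stretch does not stand for the whole gene. Over the bodies, which include part of the start and cytosines without an aligned partner, Bmp8b was higher by 31.9 points in siCon and 35.7 in siH19. Reads from long identical runs cannot be assigned to a copy, and how many were lost or misplaced was not tested.

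The change between the libraries was compared between the copies by the difference of their Mantel-Haenszel differences, with the standard error scaled by the spread over cytosines, a two-sided normal test and adjustment over 4 regions. In the start-site window siH19 minus siCon was 0.28 points for Bmp8b and -0.71 points for Bmp8a, which differ by 0.989 ± 2.17 points (95% interval -3.27 to 5.25, adjusted p-value 0.649). In the island at the start they differed by 2.11 ± 2.23 points (adjusted p-value 0.459) and in the internal island by 4.62 ± 2.65 points (adjusted p-value 0.162). In the body they differed by 3.89 ± 1.74 points (95% interval 0.487 to 7.29), with a p-value of 0.0251 before and 0.100 after adjustment. A difference between the copies in their response was not shown in any of the 4 regions. The intervals reach up to 5.25 points in the window, 6.48 in the island at the start and 9.81 in the internal island.

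**Figure D3:**
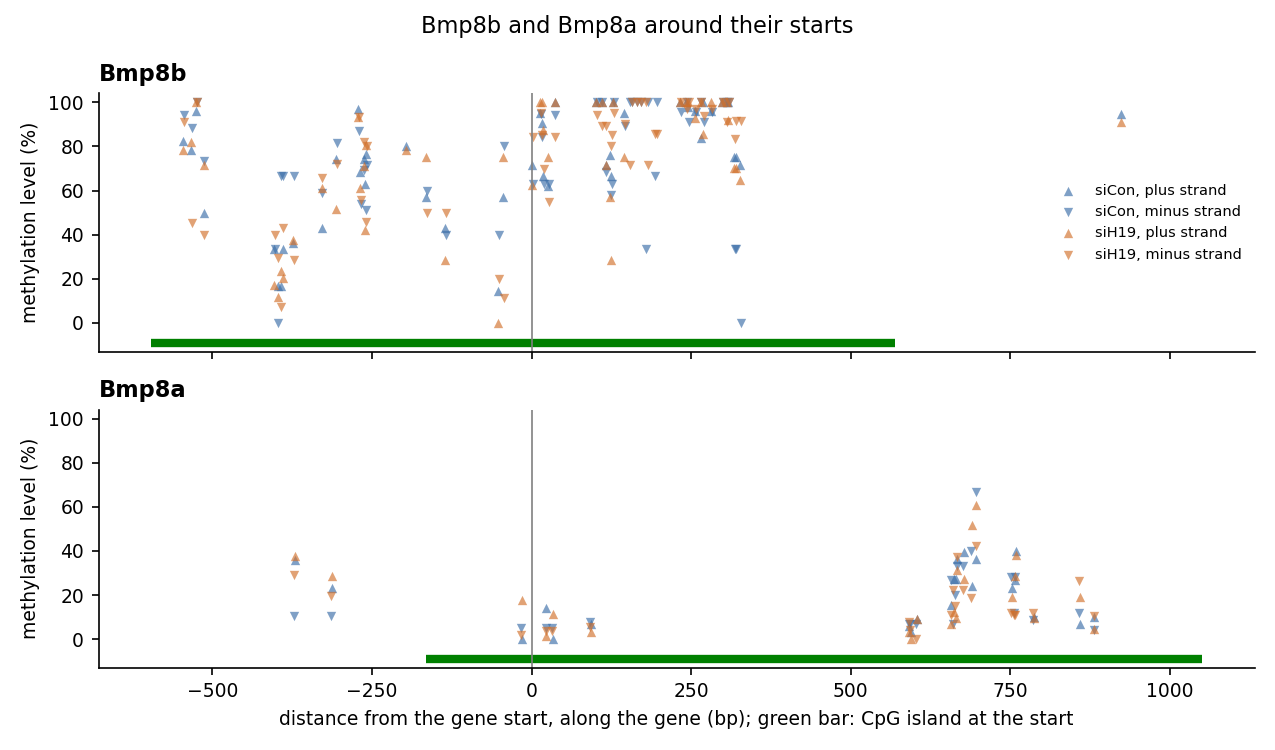
Methylation level in percent of single CpG cytosines by distance in bp from the start of Bmp8b (upper panel) and Bmp8a (lower panel) in siCon (blue) and siH19 (orange), with upward and downward triangles for the plus and minus strand of the genome and a green bar for the CpG island at the start. Most cytosines of Bmp8b after the start lie above 60% in both libraries, and the 8 cytosines of Bmp8a from 16 bp before to 93 bp after its start lie at 17.7% or less, while others of its window reach 66.7% in siCon and 60.6% in siH19.

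At single cytosines, 24 of 1330 were strongly changed, meaning at least 33 points of difference with a two-sided Fisher exact p-value under 0.05. That is 1.805%, against 0.986% of all cytosines. Of the 24, 17 were higher in siH19 and 7 lower, against 0.519% and 0.467% of all cytosines. Bmp2 had 11, Bmp8b 7, Bmp4 and Bmp7 2 each, Bmp6 and Bmp8a 1 each, and Bmp5, Gdf11 and Fst 0. Without Bmp8b the share was 1.42% (17 of 1195). Bmp8b was among the genes the study picked from these same libraries, so its cytosines are not independent evidence of a change. The paper also tested a single differentially methylated region of Bmp8b by methylation-specific PCR. It reported higher methylation with siH19, and the control level again when the enzyme S-adenosylhomocysteine hydrolase was silenced or inhibited as well. Across the genes it tested, adding either Dnmt3b siRNA brought methylation partly or fully back to the control level. DNMT3B binding at the Bmp8b region was reported as unchanged. Those assays are not part of the data used here. After adjustment over all cytosines 0 of 1330 had a p-value under 0.05, against 0.00648% of all cytosines, and the lowest was 0.196, while 59 (4.44%) had an unadjusted Fisher p-value under 0.05, against 2.53% of all cytosines.

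All 7 strongly changed cytosines of Bmp8b lay on the minus strand in the island at its start. The one with the lowest p-value, at chr4:123105493 in the coding part of the first exon, was methylated in 0 of 6 reads in siCon and in 22 of 24 in siH19 (Fisher exact p = 4.72e-05, adjusted p = 0.196). On the same 61 bp fragment, the cytosine at 123105484 had 2 of 6 and 20 of 24 methylated reads and the one at 123105486 had 2 of 6 and 22 of 24. These 3 lie side by side on the same reads and count as 1 observation, on 6 reads in siCon. The plus-strand cytosines of the same 3 CpGs went the other way, from 6 of 8 to 26 of 37, from 6 of 8 to 26 of 37 and from 5 of 7 to 24 of 37. Over the 6 cytosines of this fragment the minus strand differed by 32.1 ± 5.02 points and the plus strand by -3.98 ± 5.05. These standard errors treat cytosines on shared reads as separate and are too narrow.
The fragment is shown along the gene, with the CpGs of the 3 cytosines in capitals.
Bmp8b, chr4:123105450-123105510, plus strand, GRCm38.p6: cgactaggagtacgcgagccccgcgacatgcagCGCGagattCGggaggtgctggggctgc

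The fourth cytosine of Bmp8b that was higher in siH19, at 123105344 in the untranslated part of the first exon, had 2 of 6 methylated reads in siCon and 14 of 14 in siH19, and its plus strand had 2 reads in siCon, too few to compare. The 3 that were lower lay upstream of the start. The cytosine at 123105122, 43 bp upstream, had 4 of 5 and 1 of 9 methylated reads, and its plus strand 4 of 7 and 6 of 8. The one at 123104773 had 4 of 6 and 2 of 28, and its plus strand 2 of 12 and 8 of 34. The one at 123104633 had 15 of 17 and 5 of 11, and its plus strand 40 of 51 and 23 of 28. So the strongly changed cytosines of Bmp8b pointed up after the start and down before it, and 6 of the 7 had fewer than 10 reads in a library. In 0 of the 6 with a covered opposite strand did that strand move the same way. These counts include the 3 cytosines of the 61 bp fragment, which share reads and are 1 observation.

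Among the other genes, the lowest p-value was that of Bmp4 at chr14:46385748, in a coding exon inside an internal island, with 2 of 30 methylated reads in siCon and 17 of 37 in siH19 (Fisher exact p = 3.59e-04, adjusted p = 0.465). The neighbouring cytosine at 46385755 had 7 of 30 and 22 of 36. On the opposite strand the first went from 3 of 8 to 2 of 11 and the second from 3 of 8 to 5 of 11. The restriction fragment of this pair is shown along the gene, with both CpGs in capitals.
Bmp4, chr14:46385666-46385763, minus strand, GRCm38.p6: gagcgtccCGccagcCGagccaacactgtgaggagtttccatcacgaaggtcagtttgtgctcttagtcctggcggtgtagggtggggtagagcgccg

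In Bmp7, both strongly changed cytosines were intronic. The one at chr2:172906618 went from 0 of 16 to 10 of 21 methylated reads (Fisher exact p = 0.00173) and its opposite strand from 4 of 27 to 8 of 32, the same direction. The one at chr2:172896544 went from 2 of 26 to 3 of 6, and its opposite strand from 6 of 62 to 5 of 27. In Bmp6 the intronic cytosine at chr13:38403155 went from 7 of 18 to 13 of 16, with an opposite strand read fewer than 5 times in each library. In Bmp8a the intronic cytosine at chr4:123328886 went from 2 of 7 to 24 of 30, and its opposite strand from 4 of 6 to 42 of 60.

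Bmp2 had strongly changed cytosines in both directions, 7 higher and 4 lower. Among the lower ones, the smallest p-value was at chr2:133552223, 64 bp after the start, with 19 of 25 methylated reads in siCon and 11 of 35 in siH19 (Fisher exact p = 0.00143), and its opposite strand went from 12 of 18 to 51 of 72. Among the higher ones it was at chr2:133552283, 124 bp after the start, with 11 of 29 and 46 of 64 (Fisher exact p = 0.00272), and its opposite strand went from 35 of 60 to 62 of 98. Bmp2 also had the highest share of intermediate levels of the 9 genes, as 77.0% of its cytosines were between 20% and 80% in siCon and 75.0% in siH19. In Gdf11 the share was 3.604% and 0.901%. The difference between the plus and minus strand of a CpG within 1 library had a median size of 12.4 points in siCon and 9.66 points in siH19 for Bmp2, about the size of the median difference between the libraries on the plus strand, 9.92 points, and on the minus strand, 11.2 points. For Gdf11 the median difference between the strands was 0 points in siCon and 1.35 in siH19.

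**Figure D4:**
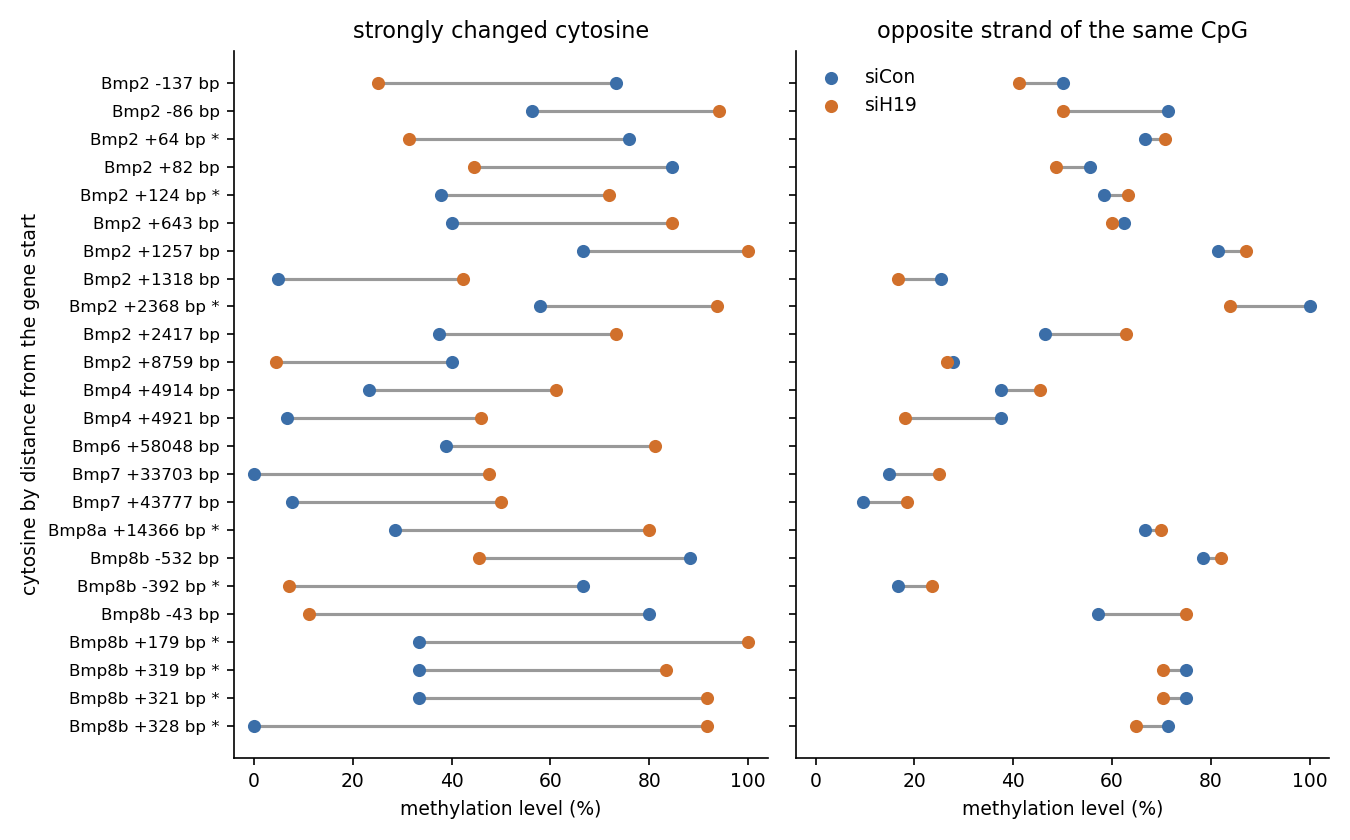
Methylation level in percent in siCon (blue) and siH19 (orange) of the 24 strongly changed cytosines (left panel) and of the opposite strand of the same CpG (right panel, shown where both libraries had at least 5 reads), by gene and distance from the gene start in bp. A star marks a cytosine with both ends of its restriction fragment within 46 bp. The gaps on the left (median 42.5 points) were selected to be at least 33 points. Those on the right (median 6.88 points) were not selected, and 10 of 22 were in the same direction.

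Over the 24, the opposite strand was covered in 22. It moved in the same direction in 10 of 22, and 0 of the 22 had a Fisher exact p-value under 0.05. The median size of the difference was 42.5 points at the strongly changed cytosine and 6.88 points on its opposite strand. The first was selected for at least 33 points and the second was not, so the medians are not a like comparison. Some of the 24 lie on shared reads and are not separate observations. When the reads of both strands were summed, 1 CpG remained strongly changed, the one of Bmp8b with its first base at 123105492, at 5 of 13 and 46 of 61 methylated reads (38.5% and 75.4%, Fisher exact p = 0.0178). For these counts no share over all cytosines was computed, so whether other genes behave alike was not tested.

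Read totals at cytosines in short restriction fragments were mostly even. Where both ends of the fragment lay within 46 bp of the cytosine, 82.4% of totals in siCon and 76.5% in siH19 were even numbers, and beyond that distance 51.3% and 51.5% were. The distance was chosen after the totals were seen. Strongly changed cytosines made up 2.35% of all cytosines within the distance and 0.76% of those beyond it. Of the 24 in the genes described here 9 lay within it, and of the 7 in Bmp8b 5 did. In the start-site window and start island of Bmp8b, 30 of 33 totals within the distance were even in siCon and 19 of 33 in siH19. With the reads halved at these cytosines, 17 of the 24 and 3 of the 7 kept a Fisher exact p-value under 0.05, and the cytosine at 123105493 then stood at 0 of 3 and 11 of 12 reads (p = 0.00879). Whether both mates of a read pair were counted there was not tested.

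**Figure D5:**
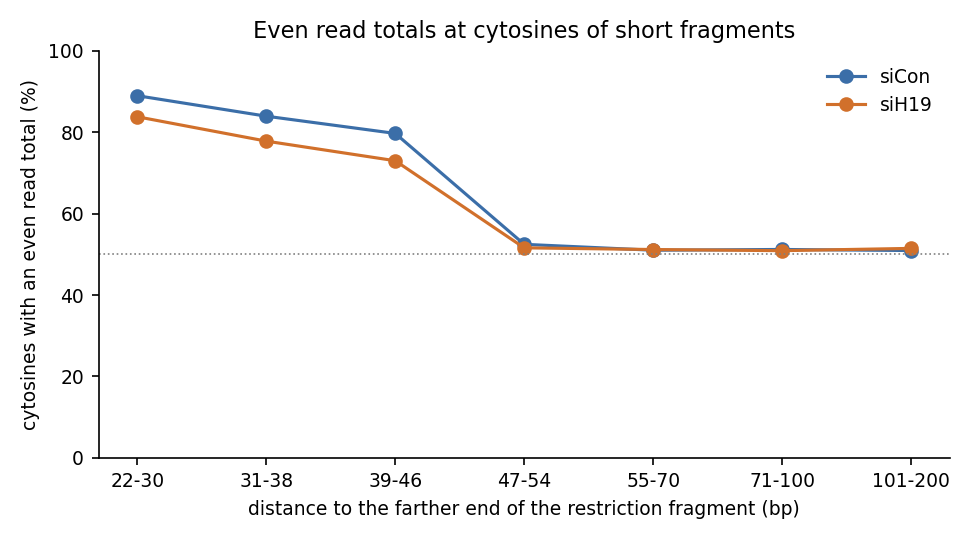
Share in percent of cytosines with an even read total, among all cytosines with 6 to 40 reads, by the distance in bp from the cytosine to the farther end of its restriction fragment, in siCon (blue) and siH19 (orange), with a dotted line at 50%. The share falls from 79.7% in siCon and 73.0% in siH19 at 39 to 46 bp to 52.5% and 51.6% at 47 to 54 bp.

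The other genes of the pathway were taken from 5 lists of 54 genes in all. Of the 44 start-site windows, 51 bodies and 80 islands tested, 0 passed the threshold in either direction. With no minimum size, an adjusted p-value under 0.05 was found in 5 of 44 windows, 4 of 51 bodies and 11 of 80 islands. Over all regions the shares were 7.39%, 3.7% and 5.82%. Regions of a gene overlap, so these counts are not separate: the body and the island of Gdf5 held the same 29 cytosines. Among the 12 other ligands, Gdf5, a ligand of joint formation, had the highest difference, 6.57 ± 2.02 points in its body (Mantel-Haenszel chi-square test, adjusted p = 0.0427, and 0.2499 when scaled by the spread over cytosines), and the lowest was -2.57 points in an island of Bmp15, an oocyte ligand. Among the 11 receptors the range was -3.43 points (Bmpr1b) to 4.58 points (Acvr2b). Among the 8 Smads it was -4.29 to 2.00 points, both in islands of Smad9. Among the 15 extracellular antagonists it ran from -5.32 points in an island of Fstl3, a relative of follistatin, to 6.10 points in an island of Chrd, the BMP-binding chordin. Among the 8 target genes, the window of Msx2, a homeobox gene, had the lowest difference, -5.56 ± 1.21 points (20.2% and 14.7%, Mantel-Haenszel chi-square test, adjusted p = 6.17e-04, and 0.0315 when scaled), and the highest was 2.10 points in the window of Id2. The median difference over the windows of a list was between -0.09 points (other ligands) and 0.36 points (extracellular antagonists), beside 0.09 points over all windows.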

How the data were processed

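CpG methylation was measured in 2 libraries, 1 per siRNA. Per the methods, fragments cut with MspI and TaqαI were size-selected, bisulfite-treated and sequenced, and the authors used the non-directional mode of Bismark for alignment, run by a service provider, trimming filled-in nucleotides. The submitters' processing notes name bcl2fastq 1.8.4 and mm10. Duplicate removal and read layout were not given in the sources used here. The deposited files gave, for each CpG cytosine and strand, methylated and total reads as text in another format than a plain number. They also gave the authors' score, a truncated methylated fraction used only to check parsing (100% of entries matched). Counts were not normalized.

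All 6041258 entries on assembled chromosomes fell on CpGs of GRCm38. Genes came from GENCODE vM21 (55450 genes), and 75059 CpG islands were computed (at least 200 bp, 50% GC, observed to expected CpG of 0.6). Cytosines with at least 5 reads per library, outside CCGG and TCGA, were tested by two-sided Fisher exact tests. Regions with at least 5 cytosines were tested by Mantel-Haenszel tests stratified by cytosine, since summed reads move with where reads fall. Benjamini-Hochberg adjustment ran over all features. Tests were tried on simulated data. Named cytosines were all strongly changed ones of a gene with at most 3, otherwise the lowest p in each direction, and all of Bmp8b. Pathway genes were named for the lowest and highest difference of a list. Members and lists were chosen with earlier results of these data known. Bmp8b and Bmp8a were aligned with blastn 2.17.0. Python 3.11.15, scipy 1.17.1 and pandas 2.3.3 were used. Alternatives were other read minimums, strands summed, summed reads, a scaled statistic, other windows, repeats or the deepest cytosines left out, restriction sites included and, chosen after seeing the data, halved reads in short fragments.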

Additional observations from a re-analysis of the deposited data

How the results depend on the processing

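No start-site window, gene body or island of the 10 genes passed the threshold under the 10 alternatives, except that with reads summed over the region 1 gene body passed, that of Fst, at 10.9 points. Of 284 recomputed differences of single regions, 256 kept their sign and 28 changed it, and 23 of the 34 regions changed sign at least once, all with a size of 1.49 points or less in the main comparison. The count of strongly changed cytosines, 24, was 15 with at least 10 reads, 1 with strands summed, 43 at 20 points and 0 at an adjusted p-value under 0.05, where the Fisher test gives 59 at an unadjusted p-value under 0.05. It was 36 with restriction sites included and 17 with reads halved. For the counts 15, 1, 43, 36 and 17 no share over all cytosines was computed. In the pathway lists, 1 region passed with restriction sites included (an island of Smad6) and 5 with reads summed.

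With summed reads the signs turned in the windows of Bmp2 (0.81 points), Bmp8b (-4.77), Gdf11 (-0.39) and Bmp6 (-1.59). They turned in the bodies of Bmp2 (1.94), Gdf11 (1.79), Bmp6 (-0.59), Fst (10.9) and Bmp4 (-1.01). They turned in the islands of Bmp2 (1.54 and 6.87), Bmp6 (-1.85 and 0.42), Bmp7 (-0.52), Bmp8b (-4.68), Gdf11 (-0.39) and Fst (0.0758). Bmp8b minus Bmp8a became -2.63 points in the window and -1.36 points in the island at the start. With restriction sites included they turned in the bodies of Bmp2 (0.15), Bmp8a (0.23) and Bmp5 (2.10) and in islands of Bmp6 (2.83), Bmp7 (-1.15), Bmp8a (0.19) and Fst (1.06). Other turns were the Bmp7 island at 10 reads (-0.0418), the Bmp2 body with reads halved (0.32), and the 500 bp windows of Bmp8a (2.38) and Fst (0.0221). The summed values follow the read placement by construction. For the rest the cause was not tested. For Bmp8b against Bmp8a the adjusted p-value in the body ran from 0.0654 to 0.379.

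With 1 library per group no paired analysis was possible and no replicate was left out. Depth limits the values of single cytosines, since in the Bmp8b window 33 of 102 cytosines had fewer than 10 reads in siCon and 18 in siH19.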

Other observations

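Fstl3, which encodes a follistatin-like protein that binds activins and myostatin, had 2 islands with differences of opposite sign. One went from 18.3% in siCon to 12.9% in siH19, which is -5.32 ± 1.42 points over 30 cytosines (Mantel-Haenszel chi-square test, adjusted p = 0.00808, and 0.232 when scaled by the spread over cytosines), and the other from 12.96% to 18.2%, which is 5.26 ± 1.46 points over 24 cytosines (adjusted p-value 0.0114, and 0.0831 when scaled). Within the genes described above, splits by location made after the values were seen gave the following differences, with no test. The 40 cytosines upstream of the Bmp2 start had 54.4% in siCon, 47.4% in siH19 and a difference of -7.06 ± 2.62 points. Of these, 18 on the minus strand of 1 fragment differed by -19.8 ± 4.196 points, the 18 on its plus strand by 1.15 ± 3.81 points and the other 4 by 1.46 ± 6.91 points. Cytosines on the same strand of a fragment share reads, so that these standard errors are too narrow. The 128 Bmp2 cytosines in untranslated exons differed by 0.05 ± 1.01 points. The 12 cytosines of Fst outside islands had 70.4% and 64.4%, a difference of -6.05 ± 1.79 points, and the 48 in untranslated exons, most of them unmethylated, differed by 0.04 ± 0.340 points. In Bmp8b the 41 upstream cytosines differed by -2.15 ± 1.93 points and the 29 coding ones by 2.73 ± 1.39 points. The coding ones include the 61 bp fragment shown above. Its 6 minus-strand cytosines, with a median of 6 reads in siCon, differed by 32.1 points and its 6 plus-strand cytosines by -3.98 points. The coding difference without this fragment was not computed.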
